A study of Mus musculus with 28 samples.

Results

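Regions that carried the cofactor Ldb1 together with the insulator protein CTCF, but not the cohesin subunit Rad21, were examined in mouse mature olfactory sensory neurons. A region was a set of Ldb1 peaks linked by an overlap of at least 1 base and found in at least 2 of 3 control libraries. Kept were those that overlapped a CTCF peak of at least 1 of 2 libraries and no peak of either of 2 Rad21 libraries. This gave 534 of 22789 control Ldb1 regions (2.34%), called CTCF-only regions here. The other Ldb1 regions were 1645 with CTCF and Rad21, 3795 with Rad21 but no CTCF, and 16815 with neither.

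The control libraries came from neurons of OMP-IRES-GFP mice, in which the fluorescent reporter follows Omp, a gene of mature olfactory neurons. Ldb1 was also mapped in 2 libraries from mature neurons of mice with OMP-IRES-Cre, Lhx2fl/fl and the reporter Rosa-CAG-tdtom+/fl (Lhx2 KO). Here recombination is driven by Omp, so that cells carried Lhx2 until they matured. The last 2 Ldb1 libraries came from Olfr1507+ cells of M28-IRES-GFP mice, neurons that express 1 odorant receptor gene. All cells were fixed with formaldehyde before sorting and chromatin immunoprecipitation. The labels give no ages and do not say whether animals were pooled or libraries came from separate animals, so spread between libraries may be technical. RNA samples were not analysed here, and the sorted cell type was not checked against marker genes.

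Ldb1 binds no DNA itself. It bridges proteins with LIM domains, such as the homeodomain factor Lhx2, and joins distant enhancers by self-association. CTCF binds a long GC-rich motif through its zinc fingers and halts the cohesin ring, of which Rad21 is the clasp, so that CTCF sites usually carry cohesin. LIM-homeodomain factors bind short AT-rich motifs around TAATTA, and in olfactory neurons Lhx2 and the Ebf factors are known regulators of receptor enhancers.

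Of the CTCF-only regions, 126 (23.6%) overlapped a promoter window of the RefSeq table of GRCm38.p6, which holds the bases from 250 before to 50 after a gene start. Promoters were the part of the regions for which sequence was at hand, and 121 windows of 109 genes overlapped a CTCF-only region by at least 150 bases. The following 5 windows had the highest mean CTCF percentile among those with a match, on either strand, to the CTCF core (a pattern of 12 bases, 7 of them fixed) upstream of the gene start. Each line gives the 250 upstream bases, 5′ to 3′ on the strand of the gene, with the match in capitals.
1700013F07Rik, chr3:108537334-108537583, plus strand: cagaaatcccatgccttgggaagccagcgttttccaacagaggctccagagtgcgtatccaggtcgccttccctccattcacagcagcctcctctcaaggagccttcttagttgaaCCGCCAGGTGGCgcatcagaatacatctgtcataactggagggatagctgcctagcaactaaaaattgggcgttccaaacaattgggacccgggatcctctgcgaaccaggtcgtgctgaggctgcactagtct
Wipf2, chr11:98863348-98863597, plus strand: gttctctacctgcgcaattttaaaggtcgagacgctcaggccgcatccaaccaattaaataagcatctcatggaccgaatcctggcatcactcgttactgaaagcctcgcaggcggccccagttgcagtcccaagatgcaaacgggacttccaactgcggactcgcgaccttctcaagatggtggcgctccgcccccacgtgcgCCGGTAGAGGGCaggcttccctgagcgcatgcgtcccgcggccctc
Cdc25a, chr9:109875329-109875578, plus strand: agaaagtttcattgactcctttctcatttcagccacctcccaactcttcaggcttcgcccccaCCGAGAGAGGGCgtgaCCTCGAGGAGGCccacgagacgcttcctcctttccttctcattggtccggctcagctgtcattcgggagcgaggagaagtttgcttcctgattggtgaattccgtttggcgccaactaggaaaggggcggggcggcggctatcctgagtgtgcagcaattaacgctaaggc
Gpr3, chr4:133212537-133212786, minus strand: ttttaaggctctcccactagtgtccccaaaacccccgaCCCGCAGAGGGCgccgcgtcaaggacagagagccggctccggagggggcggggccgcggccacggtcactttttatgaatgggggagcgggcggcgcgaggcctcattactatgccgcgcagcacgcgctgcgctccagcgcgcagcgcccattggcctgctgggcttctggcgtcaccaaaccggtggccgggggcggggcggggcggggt
Cdc34, chr10:79681945-79682194, plus strand: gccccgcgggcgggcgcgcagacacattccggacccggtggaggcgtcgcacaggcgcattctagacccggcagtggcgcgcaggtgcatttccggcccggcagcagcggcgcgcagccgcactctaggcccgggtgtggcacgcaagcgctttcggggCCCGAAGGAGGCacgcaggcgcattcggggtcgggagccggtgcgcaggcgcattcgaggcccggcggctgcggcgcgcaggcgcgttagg

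Next are the 3 regions with the highest Ldb1 percentile among windows with the LIM-homeodomain core TAATTA in the same 250 bases (its reverse complement is the same). Capitals mark TAATTA and, in Arhgap1, also a match to the CTCF core.
Msx2, chr13:53472781-53473030, minus strand: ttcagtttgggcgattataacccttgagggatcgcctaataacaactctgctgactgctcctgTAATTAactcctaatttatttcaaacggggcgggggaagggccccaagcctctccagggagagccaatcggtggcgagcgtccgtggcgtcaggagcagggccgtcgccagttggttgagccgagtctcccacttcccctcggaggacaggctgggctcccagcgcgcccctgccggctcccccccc
Tmem167b, chr3:108562467-108562716, minus strand: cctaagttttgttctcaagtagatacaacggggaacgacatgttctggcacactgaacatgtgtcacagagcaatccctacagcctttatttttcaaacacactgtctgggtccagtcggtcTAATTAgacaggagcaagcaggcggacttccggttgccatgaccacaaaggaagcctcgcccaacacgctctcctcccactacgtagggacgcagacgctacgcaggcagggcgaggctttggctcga
Arhgap1, chr2:91649868-91650117, plus strand: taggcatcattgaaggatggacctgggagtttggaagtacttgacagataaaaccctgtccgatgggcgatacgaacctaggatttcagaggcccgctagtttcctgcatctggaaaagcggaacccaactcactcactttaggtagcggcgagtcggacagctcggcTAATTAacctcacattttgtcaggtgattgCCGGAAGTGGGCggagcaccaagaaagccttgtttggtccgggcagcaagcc

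By mean percentile within the lists, Wipf2 and Msx2 stood toward 2 ends of a range within the CTCF-only regions. The scores below are the authors' peak scores, which can be compared within a library but not between libraries. At Wipf2, which encodes a regulator of the actin cytoskeleton, the CTCF scores were 45 and 102, while the Ldb1 scores were 12 and 14 in the first and second control libraries, with no peak in the third. At Cdc25a, a cell-cycle phosphatase gene with 2 matches to the CTCF core, the CTCF scores were 19 and 59. Its Ldb1 scores were 22 and 51, again with no peak in the third library. With an absent peak as 0, its mean percentiles were 44.2 for CTCF and 36.9 for Ldb1. At Msx2, a homeobox gene, the mean percentiles were 0.968 for CTCF and 92.3 for Ldb1, against 77.6 and 5.79 at Wipf2. There the Ldb1 scores were 168, 206 and 101, and the only CTCF peak had a score of 13, the lowest of the second CTCF list. Arhgap1 had Ldb1 scores of 64, 93 and 36 and 1 CTCF peak with a score of 21.

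Over all 121 windows, a match to the CTCF core on either strand was found in 27 (22.3%, 95% Wilson interval 15.8 to 30.5). It was found in 95 of 475 windows at Ldb1 regions with CTCF and Rad21 (20%), 35 of 398 at those with Rad21 alone (8.79%) and 50 of 510 at those with neither (9.80%). The share over all 32817 promoter windows was 8.61%. TAATTA was present in 15 of the 121 windows (12.4%, interval 7.66 to 19.4), against 13 of 475 with CTCF and Rad21 (2.74%), 28 of 398 with Rad21 alone (7.04%, interval 4.91 to 9.98), 71 of 510 with neither (13.9%) and 5.30% of all promoters. For promoters of CTCF-only regions the share with the CTCF core was near that of promoters with CTCF and Rad21. Both classes were chosen for a CTCF peak, so their shares with the CTCF core describe them and support nothing. The share with TAATTA was near that of promoters with neither protein, with an interval that also overlapped that of Rad21 alone. A match to the Ebf motif (a palindrome of 10 bases, 8 of them fixed) was found in 1 of the 121 windows (0.826%, interval 0.146 to 4.53). It was found in 1.89% of windows with CTCF and Rad21, 2.51% with Rad21 alone, 1.96% with neither and 0.905% of all promoters. The interval of the CTCF-only regions holds all of these shares. Base composition differed too: the median window held 21 CpG dinucleotides at CTCF-only regions, 25 with CTCF and Rad21, 21 with Rad21 alone, 18 with neither and 7 over all promoters. Its part in the motif shares was not tested. Windows of 1 gene can overlap. Windows of neighbouring genes can also share a region and a match, such as TAATTA at Arhgap1 and Zfp408 and the CTCF core at Atm and Npat. A single site can thus be counted more than once, which the intervals do not allow for. Intervals here and below cover counting error only, and no test was made. In 0 of the 32817 windows did matches to 2 of the 3 motifs share a base.

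**Figure D1:**
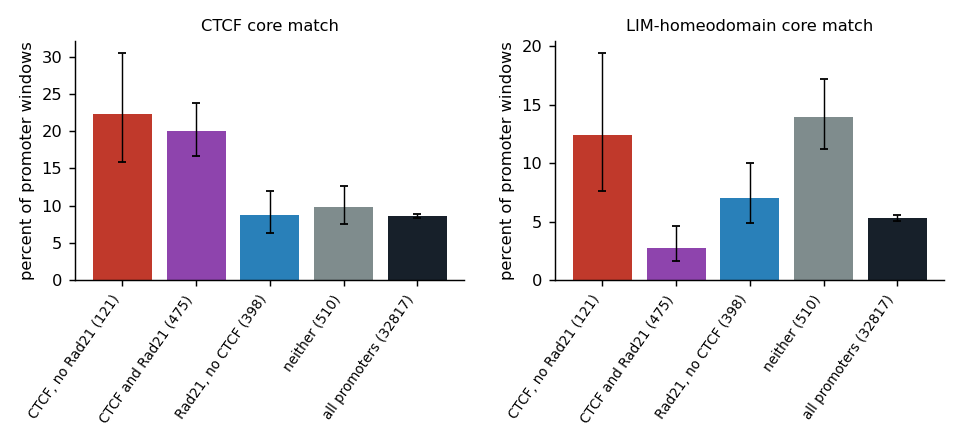
Percent of RefSeq promoter windows of 300 bases with a match to the CTCF core (left) or the LIM-homeodomain core (right), for windows overlapped by each class of Ldb1 region and for all promoters; the number of windows is in brackets and bars are 95% Wilson intervals. For CTCF-only regions the left bar stands at 22.3%, near the 20% of regions with CTCF and Rad21, and the right bar at 12.4%, near the 13.9% of regions with neither.

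The members were chosen on CTCF, Rad21 and control Ldb1 peaks, so the next values describe them and support nothing. CTCF at these regions was mostly weak and mostly seen once. Both CTCF libraries had a peak at 174 of the 534 (32.6%), the second alone at 306 and the first alone at 54. Among Ldb1 regions with CTCF and Rad21, both had one at 832 of 1645 (50.6%). Where the first library had a peak, its score had a median of 23 at CTCF-only regions and 34 where Rad21 was also present. In the second library the medians were 21 and 38. As a percentile of the list, the median CTCF peak stood at 34.4 and 24.6 in the 2 libraries, against 53.8 and 46.8 where Rad21 was present. In the strongest 10% of either CTCF list were 27 CTCF-only regions (5.06%), compared with 293 of those with Rad21 (17.8%), and 24 of the 27 had a peak in both CTCF libraries.

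Control Ldb1 at the CTCF-only regions ran over the whole range. In the first library 521 had a peak, with scores from 11 to 578 and a median of 24. The second had one at 529, with scores from 13 to 589 and a median of 35, and the third at 305, with scores from 11 to 460 and a median of 22. For regions with neither protein the medians were 27, 39 and 22. The mean percentile over the 3 lists, with an absent peak as 0, had a median of 36.4 (quartiles 18 and 66.2), against 36.3 with CTCF and Rad21, 72.3 with Rad21 alone and 42.1 with neither. All 3 libraries had a peak at 287 (53.7%). Of the strongest 10% of all control Ldb1 regions, 31 were CTCF-only, which is 5.81% of the CTCF-only regions. The share in this strongest 10% was 11.2% with CTCF and Rad21, 27.2% with Rad21 alone and 6.13% with neither. None of those 31 was among the 27 in the strongest 10% of a CTCF list. Those 27 were 5.06% of the CTCF-only regions, so few of the 31 would be shared by chance alone. Whether strong Ldb1 and strong CTCF exclude each other was not tested. Across the members the Spearman correlation of the Ldb1 percentile with the CTCF score was -0.30 in the first CTCF library (228 regions) and -0.03 in the second (480 regions), given as a description of regions that share their libraries.

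**Figure D2:**
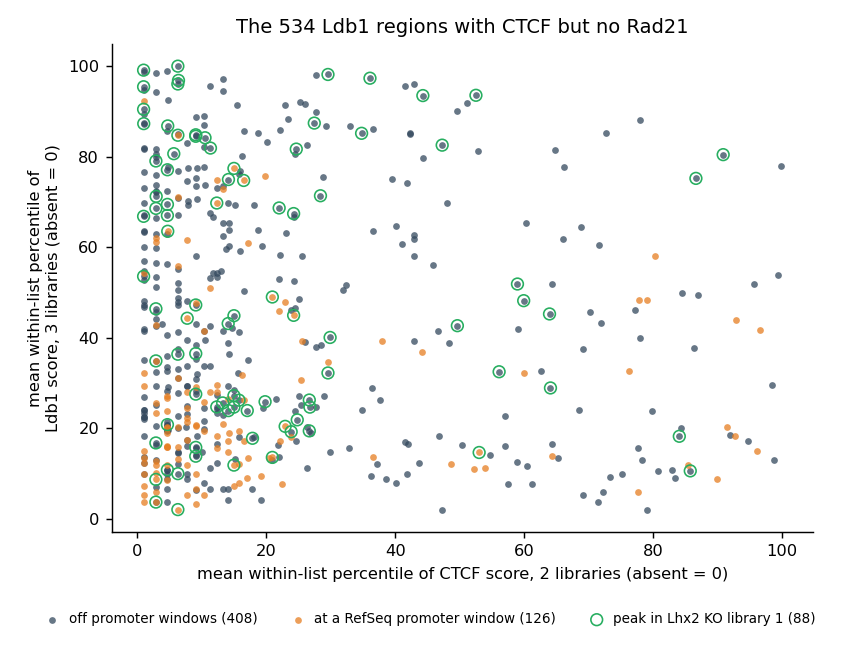
Each point is 1 of the 534 CTCF-only regions, placed by its mean within-list percentile of the CTCF score (horizontal, 2 libraries) and of the control Ldb1 score (vertical, 3 libraries), an absent peak counting as 0. Orange points are the 126 regions at promoter windows, dark points the other 408, and green rings the 88 with a peak in the first Lhx2 KO library. Most points crowd at low CTCF percentiles over the whole Ldb1 range, and the orange points lie mostly at low Ldb1 percentiles, with a median of 20.3.

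CTCF and Ldb1 did not sit at quite the same base. The centre of the nearest CTCF peak lay a median of 112 bases from the mean centre of the Ldb1 peaks (quartiles 47.7 and 209), and within 50 bases at 139 regions (26.0%). With Rad21 present the median was 96.0 bases and the share within 50 bases 26.6%. Regions with CTCF in both libraries had a median of 83.2 bases, and those with it in 1 library 128 bases. The rule asks for an overlap, which bounds these distances. The nearest peak of either library was taken, so regions with CTCF in both libraries had more chances of a short distance. Such regions were also more frequent with Rad21 present (50.6% against 32.6%). The part of this in the differences was not tested. At 51 of the 534 regions the longest overlap with a CTCF peak was under 50 bases, down to 1 base, and 177 regions with neither protein had a CTCF peak within 100 bases without touching it.

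Absence of Rad21 rested on the second Rad21 library. Of the 1645 Ldb1 regions with CTCF that had a Rad21 peak, 1041 had it in the second library alone, 27 in the first alone and 577 in both. The second list holds 28151 peaks and the first 10487. Without the second Rad21 library the same rule gave 1575 regions, and without the first 561. A Rad21 peak lay within 1 kb of 120 CTCF-only regions (22.5%) and within 10 kb of 301 (56.4%), compared with 9.40% and 41.8% of regions with neither protein. The median distance was 7.81 kb, against 14.3 kb.

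The edge of the rule was narrow in places. Nearest to a Rad21 peak without touching one were the regions 0.35 kb from Ubtd1 (5 bases away), in Frmd4a and Rcan1 (10 bases each), in Fbxo7 (11 bases) and in Cblb (12 bases), all next to peaks of the second Rad21 library with scores of 50, 47, 20, 35 and 30. Just outside the rule, a region at Rab40c overlapped a Rad21 peak by 1 base, one at Cfap74 by 3 bases, and those at Cntn4 and Vav1 by 4 bases. In all 38 CTCF-only regions had a Rad21 peak within 100 bases.

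The strongest Ldb1 peak among the CTCF-only regions lay within Zfp64, a zinc-finger gene, on chromosome 2 from 168912543 to 168912880 (mm10), and ranked 2 of all 22789 regions. Its Ldb1 scores were 578, 589 and 460, and its only CTCF peak, in the second library, scored 16. This peak was present in every other Ldb1 library, with scores of 33 and 30 in Lhx2 KO and 215 and 585 in Olfr1507 neurons. The next lay within Ttc8, which encodes a subunit of the BBSome, the coat that carries cargo in cilia (chromosome 12, 98933123 to 98933467). There the Ldb1 scores were 352, 403 and 244, the CTCF score was 13 in the second library, and the first Lhx2 KO library had a peak with a score of 13. A region within Tmcc3 followed, with Ldb1 scores of 358, 404 and 225, and another within Ankrd29, with 317, 371 and 220. Neither had a peak in an Lhx2 KO library.

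The other 6 of the 10 strongest were mostly between genes. One lay 4.96 kb from Emx2, a homeobox gene of olfactory neurons (chromosome 19, 59470316 to 59470665), with Ldb1 scores of 359, 410 and 177 and a CTCF score of 12 in the first library alone. One lay 73.8 kb from Elavl4, a neuronal RNA-binding protein gene, and had the highest CTCF score of the 10 (54, in the second library). Others lay 10.5 kb from Pax2, a developmental transcription factor gene, and 53.9 kb from Serp2. The last 2 were at Faah, which encodes an enzyme that breaks down endocannabinoids, and within Kcnn2, a calcium-activated potassium channel gene. All 10 had peaks in both Olfr1507 libraries, and 5 had one in the first Lhx2 KO library. CTCF was present in both libraries at 2 of the 10, with scores of 15 and 31 near Pax2 and 20 and 35 at Faah.

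Ordered by CTCF instead, the first region lay 1.93 kb from Asb10 (chromosome 5, 24530405 to 24530770). It had CTCF scores of 127 and 286 and Ldb1 scores of 95, 120 and 33, and its CTCF centre was 310 bases from the Ldb1 centre, with a Rad21 peak 24 bases away. Next came a site near the end of chromosome Y (90799214 to 90799608), with CTCF scores of 251 and 203. Ldb1 there scored 97 and 74 in the first and second libraries. A second region (90800667 to 90801037) had CTCF scores of 226 and 126, and these were the only 2 control Ldb1 regions of chromosome Y. At the region 1.00 kb from Dus3l, CTCF scored 86 and 197 and Ldb1 13 and 18, with the centres 23.5 bases apart. The others of the 10 lay at Ubtd1, Psmd1 (a proteasome subunit gene), Rslcan18, 1700013F07Rik and Stoml1, and 28.4 kb from Tmem33. Of these 10 regions none had a peak in either Lhx2 KO library or in the first Olfr1507 library, and 4 had one in the second.

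With the full lists, CTCF-only regions lay at gene starts and ends in a larger share than Ldb1 regions without CTCF. Within 1 kb of a gene start or end were 212 of the 534 (39.7%, interval 35.6 to 43.9), 219 more lay inside a gene and 103 between genes. The share near a gene start or end was 41.7% with CTCF and Rad21, 18.6% with Rad21 alone and 11.7% with neither. For CTCF-only regions it was 19.6% (46 regions) when only the top-scoring part of the Ldb1 and CTCF lists was used. The shares of the other classes are from the full lists and are not given at that setting, so the 19.6% has no like comparison. Promoter windows were overlapped by 23.6% (interval 20.2 to 27.4), 26.8%, 10.3% and 3.50% in the same order. The median distance to a gene start or end was 2.3 kb, against 12.3 kb with neither protein. Regions are not replicates, so these shares were not tested. CTCF peaks as such were at promoter windows less often than this, 4.68% and 9.89% of the 2 lists.

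**Figure D3:**
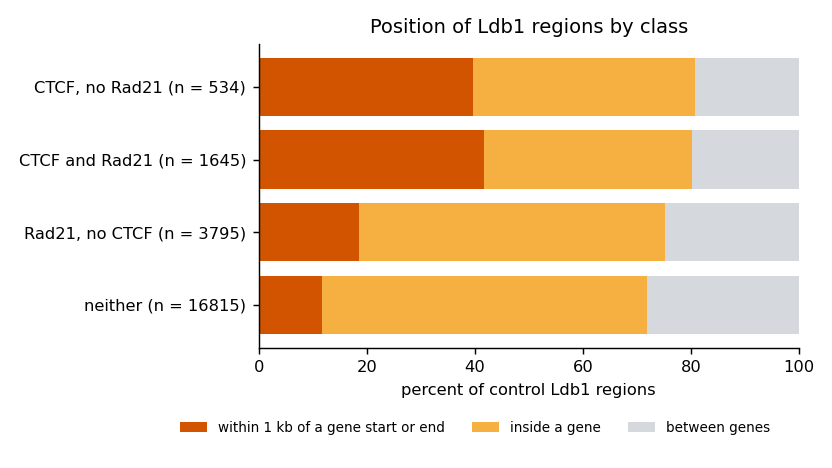
Percent of the control Ldb1 regions of each class that lay within 1 kb of a gene start or end, elsewhere inside a gene, or between genes (RefSeq genes of GRCm38.p6, n in brackets). The part near gene starts and ends is 39.7% for CTCF-only regions and 41.7% with CTCF and Rad21, and 11.7% with neither.

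Promoter members differed from the others in strength. Their Ldb1 percentile had a median of 20.3 (quartiles 12.3 and 38.6), and that of the 408 members away from promoters 43.0 (21.8 and 71.6). Both CTCF libraries had a peak at 28 of the 126 (22.2%) and at 146 of the 408 (35.8%). Of the 31 CTCF-only regions among the strongest 10% of Ldb1 regions, 1 was at a promoter window, that of Msx2. Some promoter regions served 2 genes that face away from each other. One such region lay between Atm, a DNA damage kinase gene, and Npat, a gene for an activator of histone genes, with Ldb1 scores of 17 and 17 and a CTCF score of 26. Another lay at Arhgap1 and Zfp408.

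Among 21779 protein-coding genes, 601 (2.76%) had a CTCF-only region within the gene body extended by 10 kb, and 8634 had any control Ldb1 region. Counts for lists of genes are given beside this background, without a test. For olfactory transduction, 1 of 20 genes had a CTCF-only region while 20 of 20 had an Ldb1 region of some kind. It was Pde2a, a cyclic nucleotide phosphodiesterase gene, with Ldb1 scores of 27, 61 and 22 and a CTCF score of 13. For regulators of olfactory neurons it was 2 of 21, against 20 with any Ldb1 region: Emx2, described above, and Ebf1, with Ldb1 scores of 36, 65 and 13 and a CTCF score of 16 (chromosome 11, 44911290 to 44911695). The axon guidance list counted 0 of 23, to be read against the background of 2.76%, and all 23 had an Ldb1 region. An Ldb1 region with CTCF and Rad21 was present at 10 of the 23, and at 1632 of the 21779 protein-coding genes. Longer genes leave more room for a region, and gene length was not taken into account for any list. Immature neuron markers counted 1 of 12. This was Stmn2, which encodes a regulator of microtubules, with Ldb1 scores of 124, 192 and 67 and CTCF scores of 63 and 61.

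Genes of the CTCF and cohesin machinery counted 1 of 14, and that gene was Rad21 itself, where the region had Ldb1 scores of 38, 56 and 22 and a CTCF score of 14. Genes named Rpl or Rps with a number counted 6 of 97. The 4 with the strongest Ldb1 were Rpl21, Rps6ka5, Rpl35a and Rpl32, of which Rps6ka5 encodes a kinase and not a ribosomal protein. The list goes by name alone, so neither the 6 nor the 97 is a count of ribosomal protein genes only. Clustered protocadherins counted 0 of 57, against 36 with any Ldb1 region, Hox genes 0 of 39, and markers of other cells of the epithelium 0 of 12, of which 3 had any Ldb1 region. Odorant receptor genes counted 0 of 1109, against 73 with any Ldb1 region.

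In odorant receptor clusters, runs of at least 3 receptor genes with 100 kb flanks, lay 6 CTCF-only regions (1.12%, interval 0.52 to 2.43), against 0.486% with CTCF and Rad21, 0.922% with Rad21 alone and 0.702% with neither. The share was 0.375% without the flanks and 0.439% without the second CTCF library, and the interval holds the shares of the classes with Rad21 alone and with neither. All 6 were over 10 kb from the nearest receptor gene. The strongest lay 43.7 kb from Olfr1318 on chromosome 2 (112200661 to 112201048), with Ldb1 scores of 170, 210 and 89 and CTCF scores of 33 and 42. It had peaks in both Olfr1507 libraries and in neither Lhx2 KO library. The next lay 24.4 kb from Olfr1350 on chromosome 7 (6545215 to 6545568), with Ldb1 scores of 136, 183 and 93 and a CTCF score of 13, and the first Lhx2 KO library had a peak there with a score of 10. The other 4 were at Zfp78, Rassf4, Ccdc184 and Ilvbl, genes that are not receptors, and ranged from 15.2 to 85.8 kb from a receptor gene.

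Ldb1 in the Lhx2 KO and Olfr1507 libraries took no part in the rule. A peak of the first Lhx2 KO library lay at 88 of the 534 CTCF-only regions (16.5%, interval 13.6 to 19.9), against 12.7% of all control Ldb1 regions. In the second, which lists 542 peaks, it was 5 (0.936%), against 2.17%. At least 1 KO library had a peak at 90 (16.9%, against 13.2% of all), and both at 3 (against 1.68% of all). In Olfr1507 neurons the first library had a peak at 80 (15.0%, against 21.8% of all) and the second at 339 (63.5%, against 73.5% of all), with both at 80 (against 21.6% of all). The lists differed in length, from 542 to 21250 peaks, and with no read numbers the depth behind them is unknown.

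Set against Ldb1 regions with neither protein, CTCF-only regions were found again in a larger share in 1 library and not in the other 3. The first Lhx2 KO library had a peak at 6.46% of the regions with neither, a difference of 10.0 percentage points. In the second the shares were 0.936% and 0.993%. In the Olfr1507 libraries the differences were -2.88 and -6.88 percentage points. The mean difference over the 4 libraries was 0.0509 ± 7.21 percentage points (SD, n = 4, exact sign-flip permutation test, two-sided, p = 1, adjusted p = 1 over 3 comparisons), so no common difference was found. Without the first Lhx2 KO library the mean difference was -3.27. The 4 libraries join Lhx2 KO and Olfr1507 neurons and differ in list length. The SD here and below is therefore not a spread between replicates of 1 condition.

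Against Ldb1 regions with CTCF and Rad21, CTCF-only regions were found again less often in 4 of 4 libraries. The mean difference was -6.50 ± 3.80 percentage points (SD, n = 4), from -3.07 in the first Olfr1507 library to -10.7 in the first Lhx2 KO library, which had a peak at 27.2% of the regions with both. It was -3.31 with CTCF required in both libraries (p = 0.25, exact sign-flip permutation) and -2.99 without the second CTCF library (exact p = 0.375), and in neither case did all 4 libraries go the same way. Without the second Rad21 library it was -2.59. Against those with Rad21 alone it was -18.8 ± 9.86 (SD, n = 4), again lower in 4 of 4. Both gave p = 0.125 (exact sign-flip permutation, two-sided, n = 4 libraries; adjusted p = 0.188), the smallest value that 4 libraries allow, and so neither could pass 0.05. Regions with Rad21 alone were stronger in the control. Averaged over terciles of the control Ldb1 percentile, the mean difference from them was -8.33 and from regions with both proteins -6.17.

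**Figure D4:**
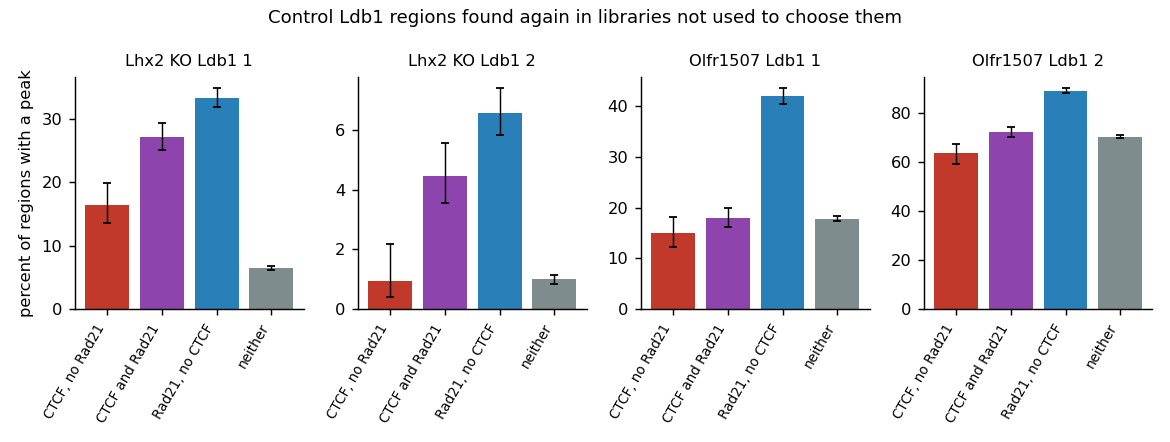
Percent of the control Ldb1 regions of each class with a peak in each of the 4 Ldb1 libraries that took no part in choosing them, with 95% Wilson intervals; each panel has its own scale. The CTCF-only bar is 16.5% in the first Lhx2 KO library, above the 6.46% of regions with neither, and 15.0% and 63.5% in the Olfr1507 libraries, below the 17.9% and 70.4% of regions with neither.

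The difference from regions with neither protein in the first Lhx2 KO library was seen in each tercile of control strength. In the lower tercile of control Ldb1 percentile, this library had a peak at 31 of 239 CTCF-only regions (13.0%, interval 9.29 to 17.8) and at 3.81% of those with neither. In the middle tercile it was 12.3% against 5.40%, and in the upper 27.1% (38 of 140) against 11.1%. Regions with CTCF and Rad21 stood higher in all 3 terciles, at 18.3%, 26.3% and 41.6%. The first Olfr1507 library is a list of similar length (5095 against 4290 peaks). It had a peak at 0 of 239, 4 of 155 and 76 of 140 CTCF-only regions from the lower to the upper tercile. Over all control Ldb1 regions its shares were 0.724%, 5.45% and 59.3% in the same order. There the upper tercile of regions with neither had 53.5%, against 54.3% for CTCF-only regions. With both Olfr1507 lists limited to their strongest 4290 peaks, CTCF-only regions were found at 12.5% and 13.3% and those with neither at 14.6% and 13.8%. A peak in an Lhx2 KO library and in no Olfr1507 library was found at 23 CTCF-only regions (4.31%), against 1.51% of all control Ldb1 regions. The share was 5.23% with CTCF and Rad21 (86 of 1645) and 0.952% with neither.

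**Figure D5:**
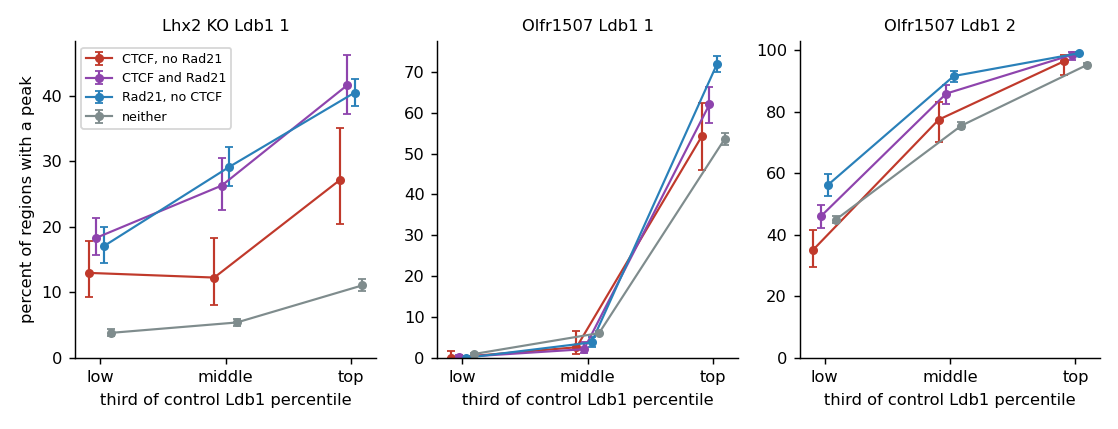
Percent of regions with a peak in the first Lhx2 KO library and in the 2 Olfr1507 libraries, by class and by tercile of the control Ldb1 percentile, with 95% Wilson intervals. In the left panel CTCF-only regions lie between those with neither and those with Rad21 in all 3 terciles. In the middle panel CTCF-only regions are at 0 of 239 in the lower tercile and 54.3% in the upper, against 0.911% and 53.5% with neither.

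The share of CTCF-only regions among the control Ldb1 regions that a library found again was 3.05% (88 of 2888) and 1.01% (5 of 494) in Lhx2 KO, and 1.61% (80 of 4974) and 2.02% (339 of 16741) in Olfr1507. The KO libraries lay on either side of the Olfr1507 libraries. Their mean differed by 0.213 percentage points (exact permutation of 2 against 2 libraries, two-sided, p = 1, where the smallest possible is 0.333).

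Peaks of the first Lhx2 KO library lay closer to the control Ldb1 centre than to the CTCF centre at most of the 88 CTCF-only regions with such a peak. A KO or Olfr1507 peak was counted only where it overlapped the Ldb1 region, which holds it near the Ldb1 centre by construction. Choosing regions with a CTCF centre over 100 bases away adds to this. The distances and shares here thus describe the counted peaks, and nearness to the Ldb1 centre beyond this bound was not tested. The median distance was 60.2 bases to the Ldb1 centre and 118 bases to the CTCF centre (88 regions). Among the 57 of them whose CTCF centre was over 100 bases from the Ldb1 centre, 17 KO peaks (29.8%, interval 19.5 to 42.7) were nearer to CTCF. In the second Olfr1507 library it was 11 of 190 (5.79%, interval 3.26 to 10.1), and in the first 2 of 43. At regions with CTCF and Rad21 the first KO library had 41 of 237 nearer to CTCF (17.3%) and the second Olfr1507 library 47 of 569 (8.26%). The second KO library had 0 of 2 at CTCF-only regions and 3 of 35 (8.57%) with CTCF and Rad21. Differences between libraries in this share were not tested.

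By position, the first Lhx2 KO library found 16 of the 126 promoter members (12.7%) and 72 of the 408 others (17.6%). The first Olfr1507 library found 3 and 77 (2.38% and 18.9%), and the second 65 and 274 (51.6% and 67.2%). The differences, promoter members minus the others, were -4.95, -16.5 and -15.6 percentage points in these 3 libraries and 0.852 in the second KO library, with 2 and 3 regions. The mean difference was -9.04 ± 8.42 (SD, n = 4, exact sign-flip permutation, two-sided, p = 0.25, smallest possible 0.125), a comparison chosen after the values were seen. Promoter members were weaker in the control as well, with a median Ldb1 percentile of 20.3 against 43.0, and the part of this in the difference was not tested. Promoter windows held 19% of the peaks of the first Lhx2 KO list, compared with 8.09%, 7.52% and 4.37% in the control Ldb1 lists. Among regions with neither protein that library found 19.4% of those at promoters and 6.00% of the others. CTCF-only regions away from promoters differed from these by 11.7 percentage points. At promoters CTCF-only regions stood lower, at 12.7% (interval 7.97 to 19.6) against 19.4% with neither (interval 16.4 to 22.7), with overlapping intervals. The share at promoters was 32.7% with CTCF and Rad21 and 25.1% with Rad21 alone. Whether the difference depended on position was not tested.

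Both Lhx2 KO libraries had a peak at 3 CTCF-only regions. One was the Zfp64 region. The second was at Cadm1, an adhesion molecule gene, on chromosome 9 from 47530126 to 47530491, with Lhx2 KO scores of 15 and 13, control Ldb1 scores of 88, 141 and 50 and a CTCF score of 144 in the second library. The third lay 12.6 kb from Bahcc1 on chromosome 11 (120304934 to 120305306). Its Lhx2 KO scores were 20 and 13, its control Ldb1 scores 31, 38 and 16, and its CTCF scores 28 and 84. The regions at Cadm1 and near Bahcc1 had a peak in the second Olfr1507 library and none in the first. The strong members near Emx2 and Pax2 and at Tmcc3, Ankrd29 and Kcnn2 had no peak in either KO library.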

How the data were processed

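The series has 28 samples, of which 11 ChIP libraries with a peak list were used. The 14 RNA and 3 input samples were not analysed here. Per the submitters' processing notes the build is mm10 and the tools include cutadapt 1.9.1, Bowtie2 2.3.2, SAMtools 1.3.1 and HOMER 4.7, without their roles. Neither the labels nor the notes state the peak threshold or control library. Each list holds the peaks of 1 library with the authors' deposited score, a whole number whose scaling is unknown, used only within a list. Peaks off the 19 autosomes, X and Y were dropped.

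Percentiles are ranks of the score within a list. Genes and promoter sequences come from RefSeq (GRCm38.p6, the assembly called mm10). Regions are named by the protein-coding gene that holds them or the nearest one. Receptor clusters allow gaps of up to 300 kb. Recovery was compared over libraries by exact permutation, with Benjamini-Hochberg adjustment over 3 classes. Python 3.11.15, numpy 2.4.6, pandas 2.3.3 and scipy 1.17.1 were used. The steps tested on simulated data were the assignment of regions to classes and the recovery difference. The members and lists were chosen with earlier results of these data known. Named regions are the 10 highest by Ldb1 and by CTCF percentile, those in receptor clusters or in both KO libraries, the 5 on each side of the Rad21 rule, and up to 4 per gene list; 1 of them is not reported here. The printed promoters, and Atm, Npat and Zfp408, were chosen after their values were seen.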

Additional observations from a re-analysis of the deposited data

How the results depend on the processing

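The number of CTCF-only regions depended on support and on library. It was 46 in the top-scoring part of the Ldb1 and CTCF lists, 174 with CTCF in both libraries and 287 with Ldb1 in all 3, and from 228 (without the second CTCF library) to 1575 (without the second Rad21 library), with 299 and 286 without the first or second Ldb1 library. The share with a peak in an Lhx2 KO library was 23.9% and 12.6% under the first pair of these settings, and from 13.2% to 24.9% leaving out 1 library. The share near a gene start or end, 39.7% as reported, was 19.6%, 32.8% and 27.9% under the 3 settings, 33.8% with no Rad21 peak within 1 kb, 29.0% within 200 bases of a gene start or end, 59.0% within 5 kb, and from 28% to 45.7% leaving out 1 library. The share in receptor clusters was 0.375% without flanks and from 0.439% (without the second CTCF library) to 1.25% leaving out 1 library.

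The mean recovery difference from regions with neither protein changed sign to -1.5 with 50% reciprocal overlap, -0.99 with centres within 200 bases, -0.21 with CTCF in both libraries and -0.61 with no Rad21 within 1 kb, and ran from -3.27 to 3.21 leaving out 1 library. The differences from regions with CTCF and Rad21 and with Rad21 alone kept the sign of their mean in all 21 alternatives each, from -7.64 to -2.59 and from -33.8 to -14.1 leaving out 1 library, with -2.59 and -33.8 without the second Rad21 library and -2.99 without the second CTCF library for the first of them. The difference in share between KO and Olfr1507 changed sign to -0.154 with CTCF in both libraries, -0.0625 with Ldb1 in all 3 and -0.0922 with no Rad21 within 1 kb, and ran from -0.805 (without the first KO library) to 5.38 (without the second Rad21 library) leaving out 1 library. Pairing same-numbered KO and Olfr1507 libraries (replicate block) gave 0.213 (exact sign-flip permutation p = 1). The labels give the libraries only a shared number. The limits to regions off promoters and to 4290 peaks were chosen after seeing the data. The cause of these changes was not tested, and the depth behind the lists is unknown.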

Other observations

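CTCF-only regions made up between 1.32% (chromosome 14) and 3.42% (chromosome 10) of the control Ldb1 regions of each chromosome other than Y. Among protein-coding genes, Ubr1, which encodes a ubiquitin ligase, and its neighbour Tmem62 were the 2 with 3 CTCF-only regions within 10 kb of the gene body. Another control Ldb1 region lay within 5 kb of 20.2% of the CTCF-only regions, compared with 20.7% of those with CTCF and Rad21, 28% with Rad21 alone and 21.0% with neither. Promoter windows held 1.57% and 5.72% of all peaks in the Olfr1507 lists and 13.8% in the second Lhx2 KO list.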
